A study of Mus musculus with 6 samples.

Results

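The cell's response to cholesterol is set by a small group of genes, 6 of which were followed here in mouse liver. Insig1, Insig2, Scap, Srebf2, Stard4 and Mylip were taken by name from a table of 54600 gene identifiers, and each had 1 row. The liver RNA was taken after 16 weeks of high-fat feeding, with 3 libraries labelled wild type (WT) and 3 labelled hepatocyte-specific HIF-2alpha knockout (KO). All 6 libraries shared the diet, and the labels do not give strain, sex, age or the driver of the deletion, so the comparison is between genotype labels on that diet alone. HIF-2alpha, encoded by Epas1, is stabilised when oxygen is low and then turns on hypoxia genes. The question addressed is how the genes that sense sterols and set LDL receptor turnover differed with the genotype label.

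SCAP is a membrane protein of the endoplasmic reticulum that senses cholesterol and escorts SREBP-2, the product of Srebf2, to the Golgi apparatus. There SREBP-2 is cut, and its freed part enters the nucleus and turns on the genes of sterol synthesis and of LDL uptake. When sterols are plentiful, INSIG1 or INSIG2 holds SCAP in the endoplasmic reticulum, and both INSIG proteins also promote breakdown of HMG-CoA reductase. Insig1 is itself an SREBP target, whereas in rodent liver a transcript of Insig2 is kept low by insulin. STARD4 carries cholesterol between membranes. Mylip encodes IDOL, a ubiquitin ligase that is switched on by the sterol-activated receptors LXR and marks the LDL receptor for destruction.

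Start-site sequences of Insig1, Insig2 and Srebf2 are given first, because Insig1 and Insig2 are the members whose values differed most and Srebf2 carries a sterol-element-like run. They are RefSeq windows on GRCm38.p6, each of 300 bases from 250 before to 50 after an annotated start, read on the gene's strand. Capitals mark ACGTG (the core of the motif bound by HIF, searched on both strands, so that CACGTG also appears), CCAAT (the NF-Y box, or ATTGG on the other strand) and TCACNCCA. The Insig1 window lies at chr5:28071162-28071461 on the plus strand. Insig2 lies on the minus strand and has 3 annotated windows, of which the outermost, at chr1:121332540-121332839, and the innermost, at chr1:121327629-121327928, are shown. The Srebf2 window lies at chr15:82147019-82147318 on the plus strand.
Insig1: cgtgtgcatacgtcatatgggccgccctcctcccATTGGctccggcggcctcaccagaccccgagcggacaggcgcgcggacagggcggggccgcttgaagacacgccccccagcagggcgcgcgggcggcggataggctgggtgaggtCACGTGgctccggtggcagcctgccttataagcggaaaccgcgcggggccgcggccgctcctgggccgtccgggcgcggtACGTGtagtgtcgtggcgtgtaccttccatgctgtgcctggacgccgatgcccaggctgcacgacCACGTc
Insig2 outer start: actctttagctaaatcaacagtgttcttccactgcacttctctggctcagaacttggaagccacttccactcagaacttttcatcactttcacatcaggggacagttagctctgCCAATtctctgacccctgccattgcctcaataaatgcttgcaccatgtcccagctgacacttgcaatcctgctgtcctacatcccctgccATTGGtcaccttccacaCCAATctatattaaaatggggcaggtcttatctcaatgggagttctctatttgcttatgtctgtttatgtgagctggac
Insig2 inner start: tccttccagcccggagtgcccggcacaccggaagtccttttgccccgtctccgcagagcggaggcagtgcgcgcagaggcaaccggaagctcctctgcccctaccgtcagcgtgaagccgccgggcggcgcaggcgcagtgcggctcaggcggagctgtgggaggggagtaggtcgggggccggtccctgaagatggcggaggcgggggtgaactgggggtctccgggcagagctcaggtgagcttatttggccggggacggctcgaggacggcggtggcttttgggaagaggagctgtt
Srebf2: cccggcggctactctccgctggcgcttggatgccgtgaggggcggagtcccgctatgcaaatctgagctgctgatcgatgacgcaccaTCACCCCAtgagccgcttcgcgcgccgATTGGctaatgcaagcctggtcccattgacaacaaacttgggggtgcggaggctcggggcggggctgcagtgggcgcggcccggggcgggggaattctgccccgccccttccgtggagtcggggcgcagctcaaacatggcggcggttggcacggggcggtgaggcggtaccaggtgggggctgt

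The Insig2 windows differed in base composition, with 46.0% G and C at the outer start and 69.3% at the inner one. The outer Insig2 window held 3 CCAAT boxes and no ACGTG, and the inner window held none of the marked motifs. Both Scap windows also held a CACGTG. The Insig1 window, with 71.7% G and C, held 1 CACGTG, which begins 101 bases before the start and is also the E-box that SREBPs can bind. Counting both strands, ACGTG occurred 4 times in the Insig1 window, and 2 of these overlap in the CACGTG. Of 32851 mouse windows of this length, 19.6% held ACGTG and 7.15% held CACGTG. A nine-letter sterol element, TCACNCCAC, was found in none of the 8 windows of Insig1, Insig2, Scap, Srebf2 and Mylip, and in 1.24% of all windows. The Srebf2 window held a run without the last base of that motif, TCACCCCA, which begins 162 bases before the start. TCACNCCA was searched after the Srebf2 sequence had been seen and occurs in 4.36% of all windows. The other hypoxia core, GCGTG, is not in capitals and was present in 32.4% of all windows. It occurred 2 times each in the Insig1 and Mylip windows, 1 time in each Scap window and 1 time in the inner Insig2 window, and also 3 times in the middle Insig2 window, but not in the outer one or in that of Srebf2. The Mylip window held 3 CCAAT boxes on the other strand, and CCAAT was present in 37.4% of all windows. These letters are a description of the sequence, and no binding was measured.

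Levels are the deposited TPM, a per-length measure of transcripts with an equal total in every library, so genes can be compared by level. TPM keeps no read totals, so the depth behind each value is unknown. Whole-liver RNA also cannot tell fewer cells of a type from less RNA per cell. A gene was tested if it reached 1 TPM in at least 3 libraries (11440 genes), with limma on log2(TPM + 1). A gene was called at a Benjamini-Hochberg adjusted p below 0.05 over all 11440. Whether the numbered libraries of a label are separate mice is not stated, so p-values reflect only how far these samples spread, which may be technical.

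Before the results, 2 facts about the libraries bear on every direction. Epas1, the targeted gene, was at 21.0 to 26.0 TPM in the WT-labelled libraries and at 26.6 to 35.1 TPM in the KO-labelled ones. It was therefore not lower under the KO label, and every direction given here is between libraries so labelled. The deposited value sums all transcripts of the gene over all liver cells, so it cannot settle whether Epas1 was deleted in hepatocytes or whether the labels hold. The hepatocyte markers Alb, Ttr, Tf, Fgb, Apoa1, Cps1, Hnf4a and Cyp2e1 were present in every library, and the 8 together summed to between 54450 and 63280 TPM under the WT label and between 60270 and 78090 TPM under the KO label. Marker sums of 8 Kupffer cell genes (163 to 234 TPM WT, 201 to 220 TPM KO) and 7 endothelial genes (94.4 to 101 TPM WT, 96.6 to 109 TPM KO) overlapped between the labels. That of 8 stellate cell genes did not (124.5 to 148 TPM WT, 150.2 to 169 TPM KO), but the gap was narrow. Most of that sum was Dcn, whose groups overlapped (87.8 to 109.8 TPM WT, 103.2 to 123.9 TPM KO). Col3a1 lay wholly higher under the KO label (6.39 to 7.72 TPM WT, 8.03 to 11.9 TPM KO). So did Col1a1, which was too low to be tested (0.572 to 0.860 TPM WT, 0.928 to 1.43 TPM KO). All 7 tested stellate genes had a log2 difference above 0, and apart from Col3a1 their groups overlapped. After median-ratio scaling the median log2 difference of these 7 genes went from 0.16 to 0.07, and 5 of them stayed above 0. Sums of 6 cholangiocyte genes (24.9 to 35.4 TPM WT, 35.1 to 56.2 TPM KO) and of 7 lymphocyte and neutrophil genes (2.40 to 10.2 TPM WT, 6.34 to 7.18 TPM KO) were low and overlapped. No marker was listed at 0, and the part of other cells in the results was not tested.

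All 6 sterol sensing genes were expressed at 5 TPM or more in every library, and all 6 were tested. By mean TPM under the WT label, Insig1 and Insig2 stood highest, Scap and Stard4 followed, then Srebf2, and Mylip was lowest. Insig1 and Insig2 did not differ from each other beyond their spread (146 ± 22.8 and 143 ± 10.96 TPM, SD, n = 3), nor did Scap and Stard4 (31.1 ± 4.67 and 30.7 ± 1.66 TPM). Insig1 had a higher mean TPM over the 6 libraries than 93.8% of the tested genes and Mylip than 43.4%.

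None of the 6 genes was called between the labels (limma, Benjamini-Hochberg adjusted p of 0.993 or 0.994 for each), where 1 of 11440 genes was called in all, or 0.00874%. At an unadjusted limma p below 0.05, 1 of the 6, Insig1, was lower under the KO label and none was higher, against 0.385% of tested genes lower and 2.76% higher. With the replicate number as a block, no gene was called in all and the smallest adjusted p of any of the 6 was 0.724. Insig1 was also the only one of the 6 whose groups did not overlap. Among tested genes, 0.857% lay wholly lower and 8.23% wholly higher under the KO label.

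**Figure D1:**
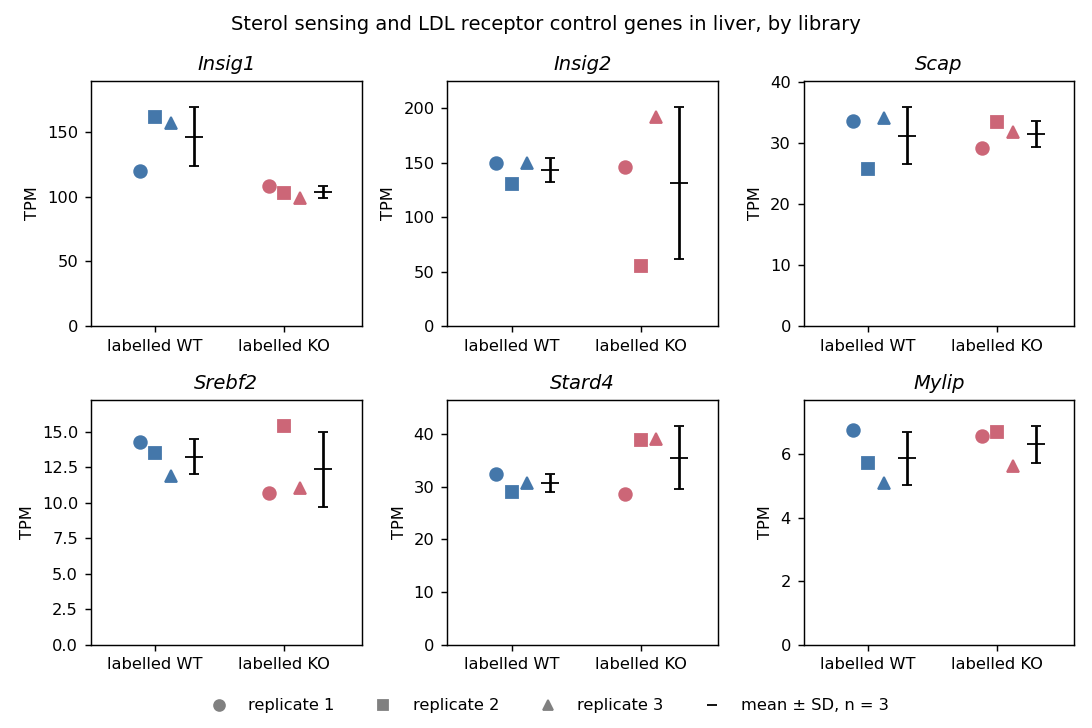
TPM of the 6 genes in each library, with 1 point per library, shaped by replicate number, and the mean ± SD of each label (n = 3). The 3 KO-labelled libraries lie below the 3 WT-labelled ones for Insig1, and KO replicate 2 stands far below the rest for Insig2 (54.8 TPM).

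Among the genes that hold SREBP in the endoplasmic reticulum, Insig1 (ENSMUSG00000045294), on the plus strand of mm10 chromosome 5 from 28071363 to 28078662, measured 120.2, 162 and 157 TPM in WT replicates 1, 2 and 3 and 108, 103 and 99.0 TPM in KO replicates 1, 2 and 3. The gap between the groups was narrow, from 120.2 TPM in WT replicate 1 to 108 TPM in KO replicate 1, and the other 2 WT-labelled libraries stood well above it. The KO-labelled mean, 103 ± 4.75 TPM (SD, n = 3), was 70.6% of the WT-labelled mean. In log2(TPM + 1) the difference was -0.49, with a 95% interval from -0.83 to -0.14 and a standard error of 0.15. Its limma p of 0.0121 ranked 75 among 11440 genes and did not survive adjustment (adjusted p = 0.993). The two-sided exact permutation p was 0.10, which is the lowest value possible with 3 libraries in each group. The values were tight under the KO label, where 91.0% of tested genes had a log2 SD at least as large, against 36.2% under the WT label. Between same-numbered libraries the log2 difference was -0.15, -0.65 and -0.66. Of the 3044 windows of 50 bases in its annotated transcripts, 66 are also in the pseudogene Gm37784, which was listed at 0 in every library. After median-ratio scaling, which moved the median log2 difference of all tested genes from 0.09 to -0.0016, the Insig1 difference was -0.60.

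Insig2 (MSTRG.181|ENSMUSG00000003721; mm10 chromosome 1, 121304353 to 121332589, minus strand) behaved differently, with 1 library far from the rest. It was at 149.9, 131 and 149.6 TPM in the WT-labelled libraries and at 146, 54.8 and 192 TPM in the KO-labelled ones. KO replicate 2 held the lowest value and KO replicate 3 the highest, a 3.50-fold range, and the groups overlapped. The log2 SD of Insig2 under the KO label, 0.94, was reached by 2.18% of tested genes, and that under the WT label, 0.11, by 78.2%. The log2 difference of -0.31 had a standard error of 0.42 and a 95% interval from -1.28 to 0.67 (limma adjusted p = 0.993). Without KO replicate 2 the difference turned to 0.23. The deposited value sums all starts of the gene, so it does not say which of the starts shown above was used.

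Because both genes were measured in the same library, their ratio does not depend on how libraries are scaled. The ratio of Insig1 to Insig2 was 0.802, 1.24 and 1.05 in the WT-labelled libraries and 0.741, 1.87 and 0.516 in the KO-labelled ones, so KO replicate 2 was the library richest in Insig1 relative to Insig2. Their summed TPM was 270.1, 292.5 and 307 under the WT label and 255, 157 and 291 under the KO label. KO replicate 2 thus had the least INSIG-encoding RNA of the 6 libraries.

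Scap, the sensor and escort (MSTRG.3605|ENSMUSG00000032485; plus strand of mm10 chromosome 9 from 110333288 to 110384950), measured 33.6, 25.7 and 34.1 TPM in the WT-labelled libraries and 29.2, 33.5 and 31.7 TPM in the KO-labelled ones. All KO-labelled values fell within the WT-labelled range. The log2 difference was 0.02 with a standard error of 0.15 and a 95% interval from -0.32 to 0.36, and its sign changed with the scaling (-0.08 after median-ratio scaling). Of the windows of 50 bases in its annotated transcripts, 9.96% are also held by the unclassified antisense transcript 5830462I19Rik, which was listed at no more than 0.128 TPM, and reads of these cannot be told apart without strand.

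Srebf2, encoding SREBP-2 itself (ENSMUSG00000022463; plus strand of mm10 chromosome 15 from 82147181 to 82205379), measured 14.3, 13.5 and 11.9 TPM under the WT label and 10.7, 15.4 and 11.01 TPM under the KO label. KO replicate 2 was the highest library and the other 2 KO-labelled libraries were the lowest. The log2 difference was -0.10 with a standard error of 0.17 and a 95% interval from -0.49 to 0.29. The ratio of Insig1 to Srebf2 was 8.41, 11.98 and 13.2 under the WT label and 10.2, 6.66 and 8.99 under the KO label. The ratio of Insig1 to Scap was 3.58, 6.28 and 4.61 against 3.71, 3.07 and 3.12. Both ratios overlapped between the labels, although Insig1 alone did not.

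Stard4, the cholesterol carrier and a target of SREBP-2 (MSTRG.1691|ENSMUSG00000024378; mm10 chromosome 18, 33199355 to 33213862, minus strand), did not follow Insig1. It was at 32.3, 29.0 and 30.7 TPM in the WT-labelled libraries and at 28.5, 38.9 and 39.0 TPM in the KO-labelled ones. KO replicates 2 and 3 stood above every WT-labelled library, and KO replicate 1 below every one. The log2 difference was 0.19 with a standard error of 0.15 and a 95% interval from -0.17 to 0.55 (exact permutation p = 0.40, limma adjusted p = 0.993). Without KO replicate 1 the difference was 0.34, and this was the only alternative of 17 in which a gene of the 6 other than Insig1 reached an unadjusted limma p below 0.05. After median-ratio scaling the Stard4 difference, with all libraries, was 0.08. The ratio of Stard4 to Srebf2 was 2.26, 2.15 and 2.59 under the WT label and 2.67, 2.53 and 3.55 under the KO label. KO replicate 3 stood highest in that ratio.

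Mylip, which sets the breakdown of the LDL receptor (ENSMUSG00000038175; plus strand of mm10 chromosome 13 from 45389742 to 45412022), measured 6.77, 5.72 and 5.10 TPM under the WT label and 6.58, 6.71 and 5.64 TPM under the KO label. The groups overlapped over almost their whole range. The log2 difference was 0.09 with a standard error of 0.14 and a 95% interval from -0.24 to 0.43, and after median-ratio scaling it was near 0 (-0.0008).

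**Figure D2:**
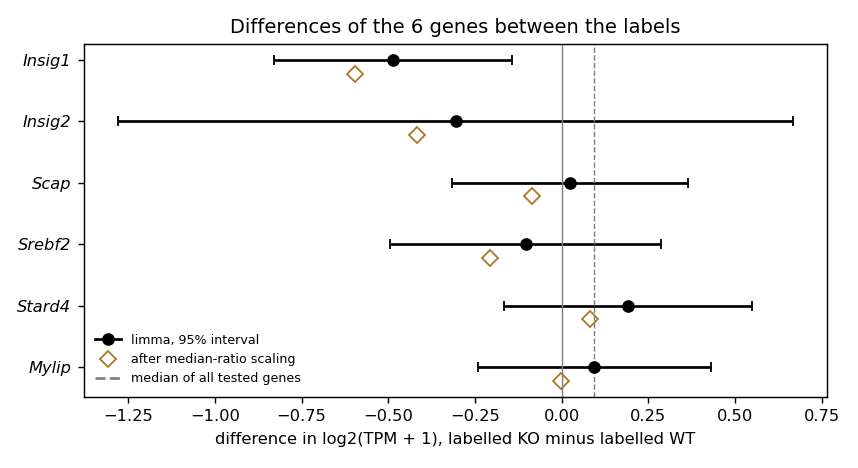
Difference in log2(TPM + 1) between the labels for the 6 genes, with the limma 95% interval (filled points) and the value after median-ratio scaling (open diamonds), and the median of all tested genes as a dashed line. The interval lies wholly below 0 for Insig1 (-0.83 to -0.14), spans 0 for the other 5 and is widest for Insig2.

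The enzymes of sterol synthesis, whose genes SREBP-2 turns on, were followed next as RNA, and the activity of SREBP-2 was not measured. Of 20 enzymes from acetyl-CoA to cholesterol, all 20 had a log2 difference below 0, with a median of -0.27 beside 0.09 over all tested genes, and none was called (limma). At an unadjusted p below 0.05, 2 were lower, Mvd and Hmgcs1, against 0.385% of all tested genes lower and 2.76% higher. With the replicate block 4 were lower, with Hsd17b7 and Pmvk added, against 0.918% of all tested genes lower and 5.26% higher in that fit. Mvd, which makes isopentenyl diphosphate, had a mean of 9.15 ± 0.811 TPM under the WT label and 5.64 ± 0.672 TPM under the KO label. Hmgcs1, which makes HMG-CoA, had 119.5 ± 12.7 TPM and 91.2 ± 10.75 TPM. Next by p came Hsd17b7 and Msmo1, which act late in the pathway. Hsd17b7 was at 23.5, 26.7 and 22.6 TPM under the WT label and at 15.4, 25.0 and 15.8 TPM under the KO label, and Msmo1 at 113, 131 and 132 TPM against 71.6, 153 and 74.2 TPM. In both, KO replicate 2 was close to or above the WT-labelled libraries and the other 2 KO-labelled libraries were lower. The number of enzymes below 0 depended on single libraries: it was 15 without WT replicate 2 or without KO replicate 3, 14 without KO replicate 1 and 18 without WT replicate 3. The median was -0.56 without KO replicate 2, -0.15 without KO replicate 1, -0.15 without KO replicate 3 and -0.18 without WT replicate 2.

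The KO-labelled libraries were split over these enzymes. The share of all tested genes that lay so in each library was not computed, so the counts below have no background beside them. In KO replicates 1 and 3, 16 of the 20 enzymes lay below every WT-labelled library and none above. In KO replicate 2, 2 lay below every WT-labelled library and 10 above, among them Fdps, the farnesyl diphosphate synthase, at 313 TPM against 156, 228 and 208 TPM. The enzymes summed to 1444, 1935 and 1685 TPM in the WT-labelled libraries and to 1208, 2120.0 and 1071 TPM in the KO-labelled ones, so KO replicate 2 had the highest sum and the other 2 KO-labelled libraries the lowest.

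Insig1 followed the enzymes in 5 libraries and not in the sixth. Its TPM was 8.32%, 8.36% and 9.32% of the summed enzyme TPM in the WT-labelled libraries, 8.98% in KO replicate 1 and 9.24% in KO replicate 3. In KO replicate 2 it was 4.84%. This share was computed after the values were seen and carries no test. In KO replicate 2, high enzyme RNA thus stood beside low Insig1 and the lowest Insig2, whereas in KO replicates 1 and 3 Insig1 and the enzymes were low together. The sum of the hepatocyte markers was highest in KO replicate 2, at 78090 TPM, and its part in this pattern was not tested.

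**Figure D3:**
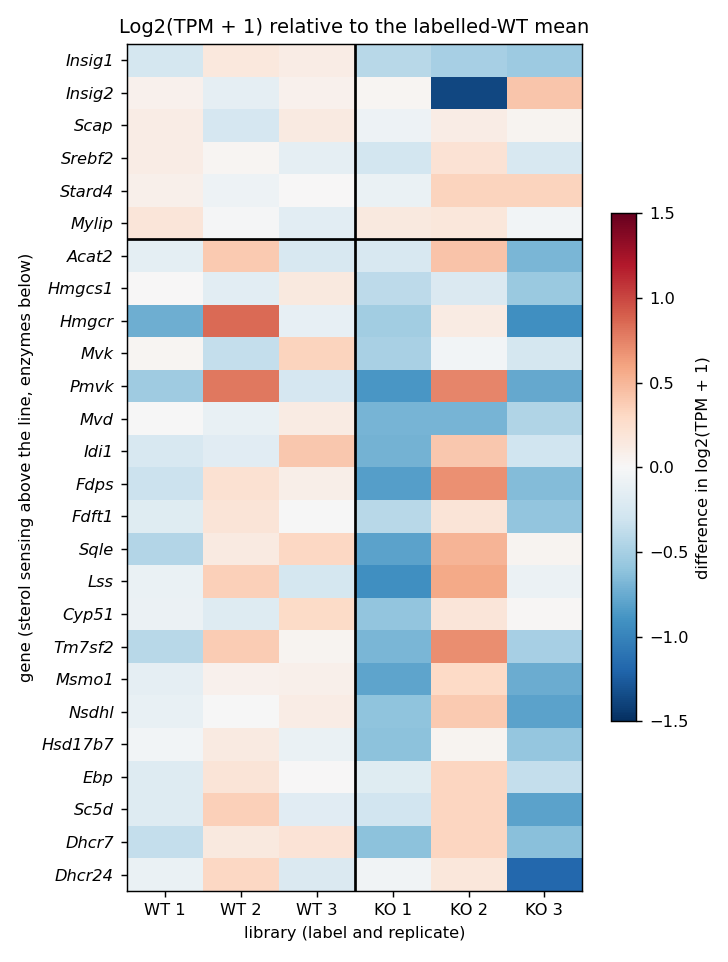
Log2(TPM + 1) of the 6 genes (above the line) and of the 20 sterol synthesis enzymes (below it) in each library, relative to the mean of the WT-labelled libraries, in red where higher and blue where lower. KO replicates 1 and 3 are blue for most enzymes, and KO replicate 2 is red for most enzymes while Insig1 and Insig2 are blue.

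**Figure D4:**
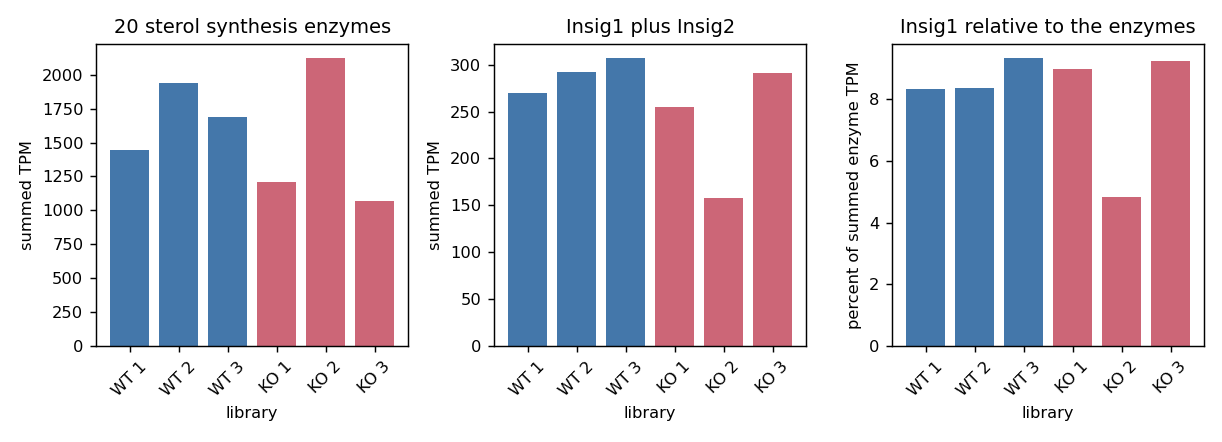
Bars give, for each library, the summed TPM of the 20 enzymes, the summed TPM of Insig1 and Insig2, and Insig1 as a percent of the summed enzyme TPM, in blue for the WT label and red for the KO label. Insig1 took 8.32% to 9.32% of the enzyme sum in 5 libraries and 4.84% in KO replicate 2.

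Other genes that act on this system are given by list in this and the next paragraph, and none of them was called (limma). Of 15 genes listed for SREBP processing and escort, 8 were below 0 and 7 above, with a median of -0.01. These 15 include Srebf1, which encodes an SREBP itself and is counted again in the LXR and insulin lists. After median-ratio scaling 13 of the 15 were below 0, with a median of -0.12. None had an unadjusted p below 0.05 without the replicate block, and with it 1, Mbtps2, was lower. Mbtps2, the membrane protease that makes the second cut of SREBP, was the one whose groups did not overlap, at 3.89, 3.64 and 2.85 TPM under the WT label and 2.78, 2.69 and 1.91 TPM under the KO label (exact permutation p = 0.10). Of all tested genes, 0.857% lay wholly lower under the KO label. Mbtps1, which makes the first cut, was at 15.6 ± 1.83 and 17.5 ± 1.75 TPM. Among 13 genes of the machinery that degrades HMG-CoA reductase and INSIG1, 12 were above 0 with a median of 0.13, and after median-ratio scaling 7 were above 0. Erlin1 was at 19.8 ± 0.146 and 22.2 ± 1.70 TPM with groups that did not overlap, where 8.23% of all tested genes lay wholly higher under the KO label. Its log2 difference of 0.15 was 0.04 after median-ratio scaling. Erlin2, the partner of Erlin1, was at 8.47 ± 1.22 and 10.7 ± 2.11 TPM with groups that overlapped. Rnf145, a sterol-responsive ubiquitin ligase, varied more between replicate numbers than between labels, at 5.26, 8.88 and 4.19 TPM against 7.75, 10.5 and 4.88 TPM.

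Around Mylip, 13 LXR and LXR target genes had 9 above 0 and a median of 0.10, close to that of all tested genes, and after median-ratio scaling 7 were above 0. Nr1h2, encoding LXR beta, was at 18.3, 16.2 and 13.4 TPM under the WT label and at 18.5, 18.98 and 19.1 TPM under the KO label, without overlap (exact permutation p = 0.10). Of all tested genes, 8.23% lay wholly higher under the KO label. The Nr1h2 log2 difference of 0.24 was 0.14 after median-ratio scaling. Abca1, the cholesterol exporter, was at 19.3 ± 1.54 and 23.6 ± 4.33 TPM, and Abcg8, a part of the biliary sterol exporter, at 36.8 ± 5.35 and 42.4 ± 6.26 TPM. Of 6 tested partners of IDOL and related receptors, 4 were above 0 with a median of 0.03, but after median-ratio scaling 4 were below 0 with a median of -0.08. Ube2d1, an E2 enzyme of the family that works with IDOL, was at 6.30 ± 0.420 and 7.26 ± 1.31 TPM. Usp2, a deubiquitinase that acts on IDOL, was at 12.1, 23.2 and 3.06 TPM under the WT label and at 11.4, 24.2 and 1.32 TPM under the KO label. Its level went with the replicate number in both labels, and the labels do not say what the number stands for. Around Stard4, 17 of 19 tested genes of sterol transport and esterification were above 0, with a median of 0.13, and after median-ratio scaling 11 were. Gramd1a, which moves cholesterol from the plasma membrane to the endoplasmic reticulum, was at 3.14, 2.74 and 2.17 TPM against 3.61, 4.18 and 4.21 TPM (exact permutation p = 0.10, limma adjusted p = 0.993). It was the 1 gene of this list with an unadjusted limma p below 0.05 (0.021), where 2.76% of all tested genes were higher. The groups of 2 genes of the list, Gramd1a and Osbpl1a, lay wholly higher under the KO label, against 8.23% of all tested genes. Soat1, which esterifies cholesterol, was at 1.73 ± 0.522 and 2.48 ± 0.551 TPM. Of 9 tested genes that respond to insulin and feeding, 6 were above 0, and Fasn was lower at an unadjusted p below 0.05 with the replicate block. Fasn, which makes fatty acids, measured 157, 399 and 119 TPM under the WT label and 166, 192 and 33.0 TPM under the KO label, so its spread within each label was wide. Irs2, which insulin lowers in liver, was at 1.53, 2.44 and 2.01 TPM against 2.12, 2.88 and 4.89 TPM. The highest Irs2 and the highest Insig2 (192 TPM) were both in KO replicate 3. In KO replicate 2, however, Insig2 was lowest (54.8 TPM), while Irs2, at 2.88 TPM, stood above every WT-labelled library. A link between these genes was not tested.

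**Figure D5:**
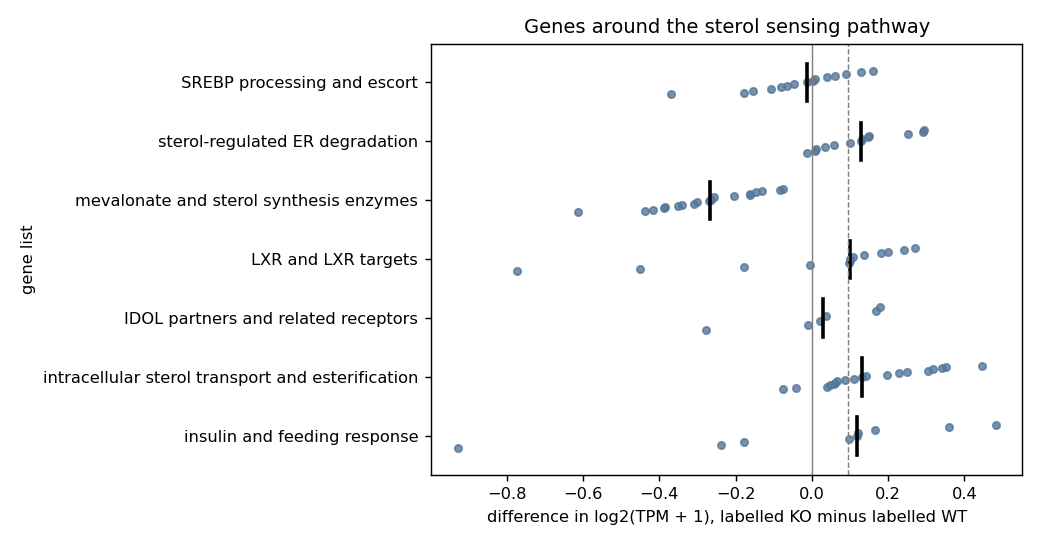
Difference in log2(TPM + 1) between the labels for each tested gene (points) of 7 gene lists, with the list's median as a black bar and the median of all tested genes as a dashed line. All 20 enzymes lie below 0, while the other lists spread around the dashed line or cross 0.

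Profiles across libraries set the 6 genes apart from each other. Over the 6 libraries and 6734 named genes whose mean TPM reached 5, those most like Insig1 were Oat, Nfyb and Lsm3 (Pearson r of 0.93, 0.93 and 0.92 on log2(TPM + 1)). Oat encodes ornithine aminotransferase, and Nfyb a subunit of NF-Y, the factor that binds the CCAAT box. Nfyb was at 18.7, 19.7 and 20.2 TPM under the WT label and at 16.9, 15.9 and 14.7 TPM under the KO label. Insig2 was most like Mup18, Med19 and Gtpbp4-ps1 (r of 0.98, 0.98 and 0.98), all lowest in KO replicate 2. Mup18, a major urinary protein gene with near-identical copies, was at 2498 TPM there and at 3268 to 3870.3 TPM in the other 5 libraries. Scap was most like Cyp2d9, Cdc16 and Mindy3 (0.96, 0.95 and 0.95), Srebf2 like Dtymk, Mybbp1a and Id3 (0.98 each), Stard4 like Igfals, C1ra and Acin1 (0.98 each) and Mylip like Vav2, Hira and Eif4ebp1 (0.995, 0.991 and 0.991). No gene reached r of 0.95 with Insig1, whereas 83 did with Mylip. With 6 libraries, which share scaling and replicate numbers, such values describe these libraries alone.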

How the data were processed

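RNA-seq of mouse liver gave 3 libraries per genotype label. The authors deposited TPM for 54600 identifiers, and each column sums to 1000000 TPM. Per the submitters' processing notes, the tools were HISAT2, fastp, limma, DESeq2 and featureCounts and the build was mm10; versions, roles and strand setting are not given in the sources used here. Symbols and coordinates came from GENCODE M21 (same build), and 51492 identifiers had a symbol. Some identifiers join an assembled locus (MSTRG) to an Ensembl gene.

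Genes reaching 1 TPM in 3 or more libraries (11440) entered a two-sided fit by limma 3.58.1 (R 4.3.3), with log2(TPM + 1) as response and the prior variance following mean level. A difference on this scale understates changes of low genes. The fit was tested on simulated data with independent libraries. That test had no pattern shared by replicate number and no scaling shift between labels, so it does not cover these features of the data. Between libraries, Spearman correlations over the tested genes were 0.945 to 0.978, and at most 0.157% of values were equal, so each library counted once.

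The 6 genes, the gene lists and the alternatives were chosen with earlier results of these data known. Named genes were the 6, Epas1, Alb and Ttr, up to 4 genes with the smallest p per list, and the 3 genes most correlated with each of the 6. Fdps, Pmvk and the hepatocyte markers beyond this rule (Cps1, Hnf4a and Cyp2e1, given as the content of a summed list) were named outside it, after values were seen, as were the share of Insig1 in the enzyme sum and the shortened sterol motif. Srebf1 was also named outside that rule, as the content of several lists, and Col1a1 after values were seen. List genes missing under their own symbol were matched by RefSeq synonyms (Spring1 and Tf). Proteins were not analysed here.

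To check pairing, each library's deviations from its label's mean were correlated across genes: libraries sharing a number gave 0.157, 0.408 and 0.381, others -0.369 to 0.026. All 3 exceed 0.1, but no label says that the numbers pair libraries. The main fit, its intervals and the exact permutation p therefore treated the libraries as unpaired, and pairing entered only through the replicate block. The check is weak, because deviations within a label cancel for each gene, so positive same-number values push the others down. The replicate block was an alternative, as were other pseudocounts (0.1 and 5), filters (none and 5 TPM), scalings (median-ratio, quantile, and TPM recomputed after dropping mitochondrial and the 20 most abundant genes), trends, and leaving out each library.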

Additional observations from a re-analysis of the deposited data

How the results depend on the processing

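Insig1, Srebf2 and Stard4 kept their direction under all 17 alternatives, and no alternative called any of the 6 genes. The filters, the trends and the replicate block cannot change a gene's log2 difference, only its p, so they do not test its direction. Insig1 ran from -0.62 to -0.41 with unadjusted limma p from 0.00282 to 0.0481. Leaving out 1 library gave -0.62 to -0.41 for Insig1, -0.67 to 0.23 for Insig2, -0.103 to 0.0926 for Scap, -0.26 to -0.01 for Srebf2, 0.12 to 0.34 for Stard4 and 0.01 to 0.19 for Mylip. Scap turned to -0.0845 with median-ratio scaling, with or without the replicate block, to -0.0673 with quantile normalization and to -0.0416 with TPM recomputed without the most abundant genes, and Mylip to -0.0008 with median-ratio scaling, with or without the block, and to -0.0255 with quantile normalization. The cause of these turns was not tested beyond the shift in scaling. The number of genes called lower, 1, became 0 with a pseudocount of 5, no filter, a filter of 5 TPM, quantile normalization, the replicate block, and the block with median-ratio scaling, and ran from 0 to 2 when 1 library was left out (2 without KO replicate 2). The number called higher, 0, also ran from 0 to 2 (2 without WT replicate 2). The replicate block changed no call of the 6 genes. Depth is unknown, so how far it limits the lower genes cannot be stated.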
